A study of Mus musculus with 6 samples.

Results

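Ly6d, Sprr1a, Gldn, Vmn2r3 and Arhgef2 are 5 of the 54232 mouse genes counted in liver RNA of FXR-null mice with and without hepatic XBP1. They were picked by name because their counts were far higher without XBP1, and the working name of the set calls them ectopic genes that rise from near zero. The difference between the genotypes therefore chose them, so their levels and fold changes are given as a description, with no test. All libraries came from liver of chow-fed male C57BL/6 mice aged 8 to 10 weeks. Both groups lacked FXR, the bile acid receptor encoded by Nr1h4. The 3 SKO libraries (Fxr-/-Xbp1fl/fl) came from mice with floxed Xbp1, and the 3 DKO libraries (Fxr-/-Xbp1LKO) from mice that also lacked XBP1 in the liver. Neither the driver of the Xbp1 deletion nor the meaning of a pair of numbers in 4 library titles, 3 DKO and 1 SKO, was stated. If those are pools of animals, the spread among libraries is smaller than that among mice. Separate animals are not named for the libraries either, and the p-values below reflect only the spread among libraries, part of which may be technical.

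In the unfolded protein response, the stress sensor IRE1 splices Xbp1 mRNA so that it encodes an active transcription factor, which drives genes for protein folding and secretion in hepatocytes and other secretory cells. The 5 genes belong to unrelated families that are best known from other tissues. Ly6d encodes a small surface protein held by a lipid anchor, known from B cell precursors and stratified epithelia. Sprr1a encodes a small proline-rich protein that is cross-linked into the cornified envelope of keratinocytes and is also induced in injured neurons and stressed heart muscle. Gldn encodes gliomedin, a secreted collagen-like and olfactomedin-domain protein of Schwann cells that gathers sodium channels at nodes of Ranvier. Vmn2r3 belongs to the V2R receptors of sensory neurons in the vomeronasal organ. Arhgef2 encodes GEF-H1, an exchange factor that is held inactive on microtubules and activates RhoA when released.

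Total counts were 16966422 to 20211285 in SKO and 18382107 to 21107674 in DKO. Levels below are CPM, counts scaled to a library of 1000000 reads with TMM factors, which correct for differences in RNA composition. At these depths 3 counts, the 1-sided 95% upper limit for a library without a read, were worth 0.126 to 0.191 CPM in a library. The counting intervals below are 2-sided. Xbp1 itself was at 225 to 260.2 CPM in SKO and at 67.0 to 95.7 CPM in DKO, highest among DKO libraries in DKO replicate 1. Nr1h4 was counted at 92.7 to 105 CPM in all 6 libraries, and the exons missing from the FXR-null allele are not given, so this does not check that genotype. Of 13986 genes tested with edgeR, 20.0% differed between the groups at an adjusted p under 0.05, 10.3% higher (1446 genes) and 9.70% lower (1357) in DKO. The split was 1856 higher and 987 lower with upper-quartile factors, and 3848 and 539 with total counts, which moved the median gene to a log2 fold change of 0.23. Leaving out SKO replicate 2 left 674 and 745, SKO replicate 3 894 and 890, and DKO replicate 3 942 and 889. Hepatocyte markers such as Alb were abundant in every library. Their summed level was lower in DKO (72620.4 to 88269.8 CPM) than in SKO (106703 to 135539 CPM), with 6 of 10 called lower and 1 higher. In whole liver, fewer cells of a type and less RNA per cell cannot be told apart.

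Ly6d (ENSMUSG00000034634, mm10 chromosome 15, 74762056 to 74763620, minus strand) had the highest DKO mean of the 5 genes, although Arhgef2 was higher in DKO replicate 2 (17.5 against 12.3 CPM). SKO replicates 1 to 3 held 18, 13 and 18 of its reads, and DKO replicates 1 to 3 held 2031, 251 and 664. In CPM these were 1.14, 0.712 and 1.01 against 85.3, 12.3 and 34.4. Every DKO library lay above every SKO library, and the SKO libraries did not differ beyond counting error, with a ratio of 1.60 between SKO replicates 1 and 2 (95% counting interval 0.743 to 3.56). The DKO libraries did differ beyond it, since DKO replicate 1 held 6.96 times the level of DKO replicate 2 (6.10 to 7.97). The means were 0.956 ± 0.221 CPM in SKO and 44.0 ± 37.4 CPM in DKO (SD, n = 3 each), a log2 fold change of 5.53 ± 1.1 (SE). Over the pooled counts of each group the ratio was 48.9, and without DKO replicate 1 it was 24.3. With 49 reads over the 3 SKO libraries, Ly6d was low but counted in each of them.

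Sprr1a (ENSMUSG00000050359, chromosome 3, 92483952 to 92485895, minus strand) was counted 2, 1 and 7 times in SKO and 381, 97 and 137 times in DKO. These counts equal 0.127, 0.0548 and 0.394 CPM against 16.0, 4.74 and 7.10 CPM, again with no overlap. The group means were 0.192 ± 0.179 and 9.28 ± 5.94 CPM (SD, n = 3 each), and the log2 fold change was 5.55 ± 0.8 (SE). With only 10 reads over the SKO libraries, the pooled ratio of 50.1 had a 95% counting interval of 27.0 to 105. SKO replicate 3 supplied 7 of those reads, and without it the log2 fold change was 6.62. Without DKO replicate 1 the pooled ratio was 30.4. No stretch of 50 bases of the Sprr1a transcript was found in a transcript of any other GENCODE M21 gene. The longest run that it shares with any of 15 other Sprr genes is 20 bases of its coding sequence, shared with Sprr1b, shown as the closest match of Sprr1a within its family:
Sprr1a and Sprr1b: cagcagaagcagccctgcac

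Gldn (ENSMUSG00000046167, chromosome 9, 54286486 to 54341786, plus strand) was close to 0 in SKO. The SKO libraries had 2, 0 and 2 reads and the DKO libraries 185, 58 and 55. DKO replicate 1 stood at 7.77 CPM, and DKO replicates 2 and 3 at 2.83 and 2.85 CPM, a ratio of 1.01 between the latter (counting interval 0.684 to 1.48). Both lay well above the highest SKO library at 0.127 CPM. The mean went from 0.0799 ± 0.0695 to 4.48 ± 2.84 CPM (SD, n = 3 each), a log2 fold change of 5.76 ± 0.78 (SE). The pooled ratio was 60.6 with a counting interval of 23.4 to 224, and 36.8 without DKO replicate 1. An antisense gene inside the locus, Gldnos, shares no exon bases with Gldn and had no reads in any library.

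Vmn2r3 (ENSMUSG00000091572, chromosome 3, 64257215 to 64289709, minus strand) had 0 reads in each SKO library. In DKO it had 87, 32 and 65 reads, or 3.65, 1.56 and 3.37 CPM, a mean of 2.86 ± 1.13 (SD, n = 3). Taking 3 counts over the SKO group as its floor, the level in DKO was at least 49.9-fold higher, and at least 42.1-fold higher without DKO replicate 1. Both bounds leave out the counting error of the DKO reads. DKO replicates 1 and 3 did not differ beyond counting error (ratio 1.08, counting interval 0.777 to 1.52), and both were above DKO replicate 2. The annotation gives this gene 9 transcripts, of which 3 are protein-coding. Exons of the protein-coding transcripts cover 5232 of its 17411 exon bases (30%), and the rest lies only in transcripts not annotated as protein-coding. The counts do not say which of these the reads came from. Of its 50-base stretches, 3.09% also occur in transcripts of other genes, led by Vmn2r2.

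Arhgef2 (ENSMUSG00000028059, chromosome 3, 88605966 to 88648052, plus strand) did not start near zero. It already had 91, 106 and 116 reads in SKO, against 1023, 359 and 482 in DKO. The SKO levels of 5.78, 5.81 and 6.53 CPM were even, and the counting intervals of all their ratios include 1. The DKO levels of 43.0, 17.5 and 25.0 CPM were all higher, and DKO replicate 1 again stood above the others. Means were 6.04 ± 0.424 and 28.5 ± 13.1 CPM (SD, n = 3 each), with a log2 fold change of 2.24 ± 0.37 (SE), a pooled ratio of 4.85 and a ratio of 3.50 without DKO replicate 1. Among the tested genes, 33.4% had a lower SKO mean than Arhgef2, against 10.3% for Ly6d and 0.272% for Sprr1a. The antisense gene Gm20652 overlaps 138 of its exon bases. It had 0 reads in SKO and 6 in DKO, and whether the authors' counting used strand is not given.

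**Figure D1:**
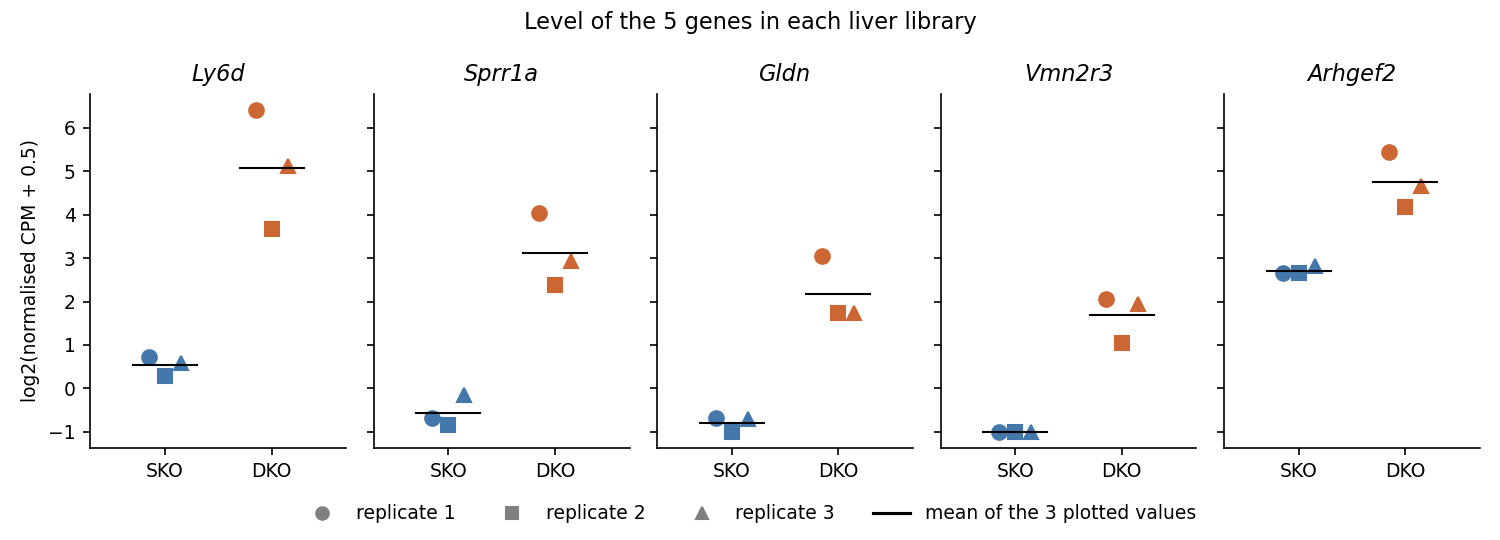
Level of each of the 5 genes in the 3 SKO and 3 DKO libraries, as log2(normalised CPM + 0.5). Each marker is a library and the bars are means of the plotted values. No DKO library overlaps an SKO library, SKO levels of Gldn, Vmn2r3 and Sprr1a lie near the floor of the scale, and Arhgef2 starts at about the level that Gldn and Sprr1a reach in DKO.

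All 5 genes passed the filter on low counts, and in all 5 every DKO library lay above every SKO library. That pattern was seen in 20.2% of the tested genes, and since the genotype difference chose the 5 genes their count adds nothing to it. The set spans a wide range of levels. Per kilobase of annotated exon, the DKO means were 59.1 CPM for Ly6d, 11.5 for Sprr1a, 2.89 for Arhgef2, 0.963 for Gldn and 0.164 for Vmn2r3. The SKO means on the same scale were 1.29 for Ly6d, 0.614 for Arhgef2, 0.238 for Sprr1a, 0.0171 for Gldn and 0 for Vmn2r3. Thus Sprr1a passed Arhgef2 in DKO and stood below it in SKO. The value per kilobase of Vmn2r3 rests on its long annotated exons. Even in DKO, 3 of the genes stayed below the median tested gene of 15.6 CPM: Sprr1a, Gldn and Vmn2r3.

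The DKO libraries kept a shared order across the 5 genes. DKO replicate 1 was highest and DKO replicate 3 above DKO replicate 2 for each of them, although the order of replicates 2 and 3 for Gldn and of replicates 1 and 3 for Vmn2r3 lay within counting error. This order among libraries of 1 genotype was not used to choose the genes. It is also common elsewhere: of the 1441 other genes called higher by edgeR, DKO replicate 1 was highest in 74.2% and the whole order held in 53.2%, against 39.2% and 23.1% of all tested genes. Among the 130 other called genes with a log2 fold change of at least 2, the shares were 86.2% and 66.2%. The 5 genes differed in how far DKO replicate 1 stood out. Its log2 ratio to the mean of DKO replicates 2 and 3, with 0.5 CPM added, was 1.85 for Ly6d, 1.36 for Sprr1a, 1.31 for Gldn and 1.0 for Arhgef2, but 0.49 for Vmn2r3. The median of those 130 genes was 0.66. Of them, 99.2% lay below the value of Ly6d and 30.8% below that of Vmn2r3. Xbp1 was also highest in DKO replicate 1, so the library with most Xbp1 reads among the DKO libraries had most reads of these genes as well. Xbp1 was at 95.7 CPM there and at 67.0 and 68.2 CPM in DKO replicates 2 and 3. Counts per gene do not tell intact Xbp1 mRNA from any mRNA of the deleted allele, so they do not measure how complete the deletion was. Whether the level of Xbp1 bears on the 5 genes was not tested.

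**Figure D2:**
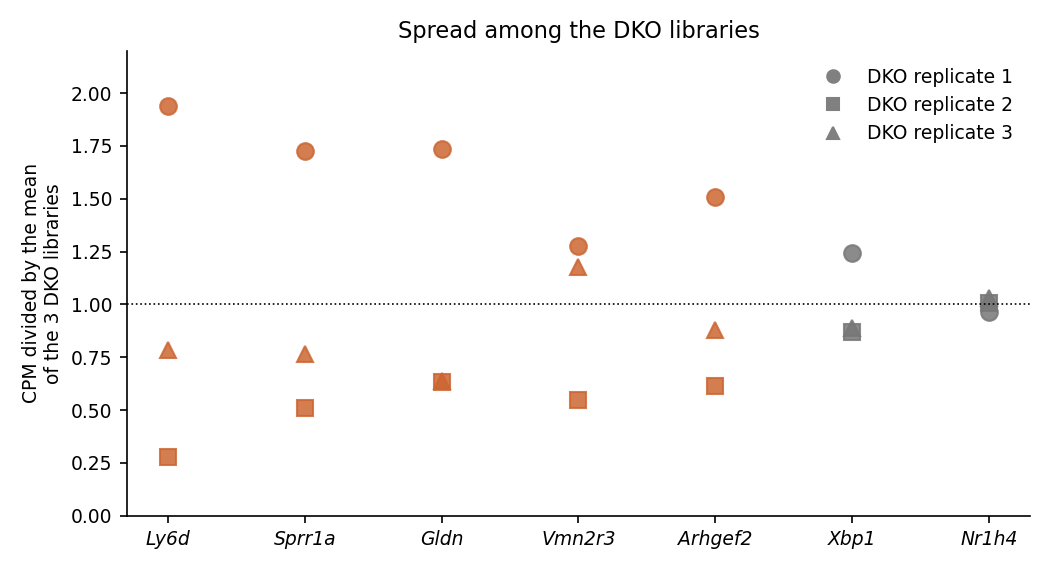
Level of each gene in the 3 DKO libraries divided by their mean, with Xbp1 and Nr1h4 for comparison. Each marker is a library and the dotted line marks the mean. DKO replicate 1 lies highest for all 5 genes and for Xbp1, with the widest spread for Ly6d (12.3 to 85.3 CPM), while Nr1h4 varies little.

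RefSeq promoter sequences (GRCm38.p6, the assembly of mm10) were found for Sprr1a, Gldn, Vmn2r3 and Arhgef2, the last with 4 alternative starts, and not for Ly6d. They were searched on both strands from 250 bases before to 50 after each start for 6 motifs. These were the XBP1 element core TGACGTG, the ERSE (CCAAT and CCACG with any 9 bases between), the ATF4 and CHOP element TGATGNAA, the AP-1 site TGANTCA, the TEAD site GGAATG and the TATA box TATAAA, where N is any base. AP-1 is the Jun and Fos family of stress-responsive factors. Sprr1a held 2 AP-1 matches, at bases -146 to -140 and -116 to -110 relative to its start, and a TATA box at -43 to -38. Gldn held 1 AP-1 match at -72 to -66. Of 32851 promoter windows of this length, 7.81% held at least 1 AP-1 match, 0.46% at least 2 and 13.6% a TATA box. The first Arhgef2 start had a TGATGNAA match at bases 26 to 33 after it, a motif held by 3.97% of windows. No other match was found in the windows of the 4 genes, where TGACGTG is held by 2.01% of all windows, the ERSE by 0.119% and GGAATG by 14.7%. The bases before the Vmn2r3 start (chr3:64287418-64287667) and before all 4 Arhgef2 starts (the first at chr3:88615893-88616142) lay inside the gene spans given above. The outermost annotated starts of Vmn2r3 and Arhgef2 were therefore not searched. A match is a description of these letters and not a binding site. The 250 bases before the start of Sprr1a and Gldn are shown because both hold AP-1 matches, with all motif matches in capitals:
Sprr1a, chr3:92485882-92486131, minus strand: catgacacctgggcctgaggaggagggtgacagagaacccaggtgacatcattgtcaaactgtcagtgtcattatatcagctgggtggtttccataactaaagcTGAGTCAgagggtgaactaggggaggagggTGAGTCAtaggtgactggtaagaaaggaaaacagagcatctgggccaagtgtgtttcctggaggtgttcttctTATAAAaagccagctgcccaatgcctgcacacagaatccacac
Gldn, chr9:54286236-54286485, plus strand: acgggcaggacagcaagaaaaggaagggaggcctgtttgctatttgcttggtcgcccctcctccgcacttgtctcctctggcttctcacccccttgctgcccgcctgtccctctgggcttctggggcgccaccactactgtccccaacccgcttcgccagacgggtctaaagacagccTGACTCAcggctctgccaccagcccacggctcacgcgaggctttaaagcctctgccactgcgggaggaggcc

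None of the tested genes beside the 5 loci was called. The nearest 2 protein-coding genes on each side, and Gm20652, make 21 genes, of which 9 had no reads in any library and 6 could be tested. Of all tested genes 20.0% were called by edgeR, and 6 genes are too few to tell the neighbours from that share. edgeR called 0 of the 6, as did DESeq2 and limma-voom, and 1 had an unadjusted p under 0.05. That gene was Lynx1, a Ly6-family regulator of acetylcholine receptors that lies 9010 bases from Ly6d. Its SKO mean was 1.76 ± 0.403 CPM and its DKO mean 3.32 ± 1.20 CPM. It differed by log2 0.92 ± 0.3 (edgeR adjusted p = 0.0545), and it was called without DKO replicate 2 (edgeR adjusted p = 0.0218), with no filter on low counts (0.00439) and with total-count (0.0227) or upper-quartile scaling (0.0454). Ly6k, 33254 bases away on the other side, had 0 reads in SKO and 12 in DKO, and was called where the filter was dropped (edgeR adjusted p = 0.0148). Most of its reads came from DKO replicate 3, with 0.0840, 0 and 0.518 CPM in DKO replicates 1 to 3. D730001G18Rik, the nearest gene at 7288 bases, had 0 and 5 reads, and Slurp2 had none. Around Sprr1a, the neighbours Sprr3 and Sprr4 had no reads and Sprr1b had 2, both in DKO. Beside Gldn, Cyp19a1 had no reads and Dmxl2, a regulator of the vacuolar proton pump, was at 49.6 ± 3.66 and 52.1 ± 6.31 CPM, called with total-count scaling alone (edgeR adjusted p = 0.0405). Vmn2r2, Vmn2r4 and Vmn2r5 had no reads and Vmn2r1 had 1 read in DKO. Beside Arhgef2, the translocon-associated gene Ssr2 had a log2 fold change of -0.07 ± 0.07, Ubqln4 -0.03 ± 0.07 and Khdc4 -0.09 ± 0.07. Tnfaip8l3, the other neighbour of Gldn that was tested, had a log2 fold change of -0.29 ± 0.39.

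Among relatives of Ly6d, 36 further genes of the Ly6 and uPAR domain family were in the files and 8 were tested. Of these, 2 rose (25.0%, beside 10.3% of all tested genes) and 6 were not called. The median log2 fold change was 0.71 beside 0.01 for all tested genes. Ly6e, a widely expressed and interferon-inducible member, rose from 241 ± 24.5 to 533 ± 76.1 CPM, with log2 1.14 ± 0.12 and an edgeR adjusted p of 0.000309. Ly6a, which encodes the stem cell antigen Sca-1, rose from 10.6 ± 3.89 to 19.9 ± 1.24 CPM, with log2 0.91 ± 0.24 and an edgeR adjusted p of 0.0384. Its call ended on leaving out any DKO library or SKO replicate 3 (edgeR adjusted p up to 0.129), and the family then had 1 call without DKO replicate 1, DKO replicate 3 or SKO replicate 3. With no filter on low counts 5 members were called higher and 1 lower, and with total-count scaling 4 were higher.

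The epidermal genes around Sprr1a were mostly without reads. Of 62 genes of the cornified envelope and the epidermal differentiation complex, 43 had no reads in any library and 7 were tested. Of those 7, 3 rose, which is 42.9% beside 10.3% of all tested genes, and the number was 3 in each fit without 1 library. Ppl, the desmosomal linker periplakin, rose from 2.36 ± 0.736 to 11.8 ± 4.96 CPM, with log2 2.34 ± 0.35 and an edgeR adjusted p of 0.00458. Tchh, the hair follicle protein trichohyalin, rose from 0.683 ± 0.270 to 2.29 ± 0.323 CPM (log2 1.71 ± 0.31). Cstb, a widely expressed inhibitor of lysosomal cathepsins, rose from 36.0 ± 3.26 to 58.9 ± 9.98 CPM (log2 0.71 ± 0.12). Markers of squamous epithelium, where Sprr1a is abundant, overlapped between the groups. Over 14 genes they summed to 2.41 to 2.59 CPM in SKO libraries and 2.33 to 2.56 CPM in DKO libraries. Most of the sum was Krt10 (1.55 ± 0.244 and 1.36 ± 0.213 CPM). Only 2 of the 14 could be tested, and neither was called, so the overlap says little about the other markers. Krt1, Krt13, Krt15, Krt6a and Dsc3 had no reads in any library.

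For Gldn, 29 genes of the node of Ranvier or with olfactomedin domains were counted and 17 tested. Of these, 3 rose (17.6%) and 2 fell, beside 10.3% and 9.70% of all tested genes, with a median log2 fold change of 0.33. The risers were Olfml2a (log2 2.05 ± 0.54, its call lost without DKO replicate 1, SKO replicate 2 or SKO replicate 3, with an edgeR adjusted p up to 0.0897), Olfml2b (log2 1.54 ± 0.33) and Olfml3, a secreted matrix protein that went from 5.05 ± 0.519 to 14.3 ± 4.08 CPM, with log2 1.5 ± 0.2 and an edgeR adjusted p of 0.00158. They share the olfactomedin domain with gliomedin and are not known as genes of the node. Slc9a3r1, the scaffold NHERF1, fell from 263 ± 19.4 to 191 ± 2.87 CPM (log2 -0.47 ± 0.08), and Olfml1 fell from 21.1 ± 3.13 to 13.5 ± 1.49 CPM (log2 -0.65 ± 0.13). Without DKO replicate 2 the number of risers was 7. It was also 7 with no filter, 5 with DESeq2 or upper-quartile factors and 9 with total counts. Schwann cell and nerve markers summed to 4.33 to 5.27 CPM in SKO and 5.91 to 8.61 CPM in DKO, highest in DKO replicate 1, and 2 of 6 tested (33.3%) were called higher, beside 10.3% of all tested genes. Their part in the rise of Gldn was not tested.

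No other V2R receptor passed the filter on low counts. Of 123 further Vmn2r genes in the files, 115 had no reads in any library. The highest was Vmn2r97, with 4 reads in SKO and 17 in DKO, followed by Vmn2r84 and Vmn2r100 with 1 and 2 each. All 123 genes together came to 0.153 CPM in SKO libraries and 0.397 CPM in DKO libraries on average, beside 2.86 CPM for Vmn2r3 alone in DKO. Trpc2, the channel that carries the vomeronasal signal, and Gng13 had no reads. The 6 markers of vomeronasal neurons summed to 0.548 to 0.675 CPM in SKO and 0.778 to 1.17 CPM in DKO, without overlap and highest in DKO replicate 2. Of all tested genes, 20.2% had every DKO library above every SKO library. Most of the sum was Gnao1 (0.448 ± 0.103 and 0.628 ± 0.0566 CPM). It was the 1 marker tested and was not called (edgeR adjusted p = 0.362). The part of vomeronasal neurons in the level of Vmn2r3 was not tested.

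Arhgef2 belongs to the Dbl family of exchange factors, of which 59 others were counted and 52 tested. The family moved both ways: 6 members rose and 5 fell. The share of risers, 11.5%, is close to the 10.3% of all tested genes, and the median log2 fold change was 0.08. Among the falls, Fgd6 went from 59.7 ± 3.05 to 38.2 ± 1.98 CPM, with log2 -0.64 ± 0.07 and an edgeR adjusted p of 0.000411 and Ngef, or ephexin, from 57.6 ± 8.05 to 28.1 ± 3.51 CPM (log2 -1.04 ± 0.12). Arhgef6 rose from 5.07 ± 0.202 to 8.24 ± 1.12 CPM (log2 0.7 ± 0.15). The risers numbered 3 without DKO replicate 1 or DKO replicate 3, 2 without SKO replicate 2 and 1 without SKO replicate 3. The falls numbered 2 without DKO replicate 3 or SKO replicate 2. With total-count scaling 21 rose and 2 fell, and with no filter 15 rose and 8 fell.

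Of 39 tested genes in the list of RhoA signalling, tubulins and proteins that bind GEF-H1, 16 rose (41.0%, beside 10.3% of all tested genes), 22 were not called and 1, the RhoA effector kinase Rock1, fell. The median log2 fold change was 0.32. Tuba8, an alpha-tubulin, rose from 2.73 ± 0.844 to 15.8 ± 4.46 CPM, with log2 2.55 ± 0.27 and an edgeR adjusted p of 0.00069. Tubb6, a beta-tubulin, rose from 9.42 ± 0.666 to 21.0 ± 4.81 CPM (log2 1.16 ± 0.16), and the GTPase gene Rhoc from 10.2 ± 0.389 to 22.9 ± 4.98 CPM (log2 1.17 ± 0.15). The risers numbered 8 without SKO replicate 2, 9 without SKO replicate 3 and 10 without DKO replicate 1, and with total-count scaling 25. The fall of Rock1 (log2 -0.26 ± 0.07) was smaller, and no member of the list was called lower with total-count or upper-quartile scaling or on leaving out replicate 2 or 3 of either group (edgeR adjusted p of Rock1 up to 0.734). Without SKO replicate 1 there were 2 falls. Tubulin genes have near-identical copies, so reads may be split between them or left uncounted, which was not measured.

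Sprr1a is known to be induced together with other genes in injured neurons and muscle, and 17 of these were in the files. Of them 8 had too few reads to be tested. Myh7, Nppa and Nppb had no reads in any library, and Gap43 had 1 read, in DKO. Among the 9 tested, 4 rose (44.4%, beside 10.3% of all tested genes), 1 fell and 4 were not called. Atf3, which encodes a transcription factor of the stress response, stood at 1.04 ± 0.301 CPM and rose to 7.39 ± 3.39 CPM (log2 2.85 ± 0.38), with an edgeR adjusted p of 0.00202. Tnfrsf12a, the TWEAK receptor Fn14, rose from 7.64 ± 0.974 to 19.0 ± 6.32 CPM (log2 1.32 ± 0.24). Klf6 rose from 12.7 ± 1.69 to 25.3 ± 6.68 CPM (log2 1.0 ± 0.2), and Ankrd1 went from 0.235 ± 0.0757 to 0.861 ± 0.491 CPM (log2 1.89 ± 0.53). The call of Ankrd1 ended without DKO replicate 1 or any 1 SKO library (edgeR adjusted p up to 0.109). Without SKO replicate 2 the risers numbered 2, and Klf6 lost its call (edgeR adjusted p = 0.0509). The fall of Csrp3 (log2 -0.32 ± 0.1) was called in the fit without DKO replicate 2 but in no other fit without 1 library, nor with upper-quartile or total-count scaling (edgeR adjusted p up to 0.363).

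**Figure D3:**
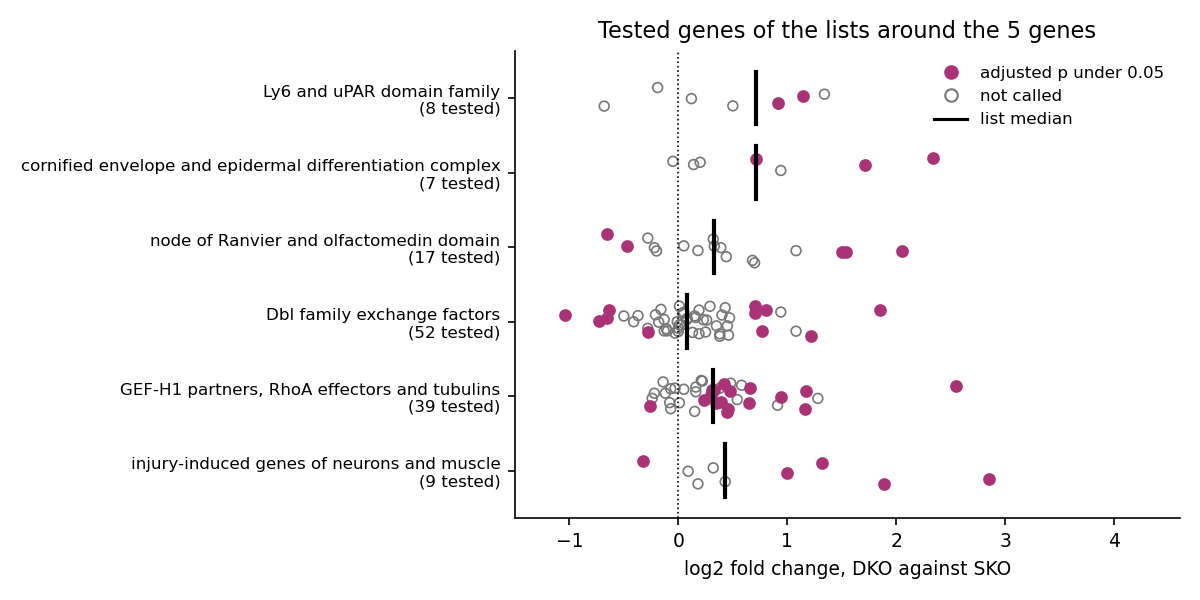
Log2 fold change of each tested gene, DKO against SKO, in the lists around the 5 genes, which are themselves left out. Filled points passed an edgeR adjusted p of 0.05 and black bars are list medians. The Dbl family genes spread to both sides around a median of 0.08, while the GEF-H1 partner list has 16 filled points on the right and 1 on the left.

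Several marker lists of other liver cell types summed higher in every DKO library, and their shares of genes called higher stand beside 10.3% of all tested genes. Macrophage and monocyte markers, 9 genes with 5 called higher (55.6%), summed to 300.4 to 385 CPM in SKO and 406 to 596 CPM in DKO. Stellate cell and fibroblast markers, 8 genes with 4 called higher (50%), summed to 304 to 364 and 483 to 671 CPM. Cholangiocyte and gallbladder markers, 10 genes with 3 of 8 tested called higher (37.5%), summed to 63.0 to 76.0 and 124 to 204 CPM, most of it Spp1. DKO replicate 1 had the highest sum in each of these lists, as it had for the 5 genes. The part of these cell types in the rise of the 5 genes was not tested. Leaving out SKO replicate 2 ended the calls of Adgre1 and Ccr2 among macrophage markers. It also ended those of the stellate markers Col1a1, Des and Pdgfrb and the cholangiocyte markers Epcam and Krt19. The calls of Cd68, Gpnmb, Trem2, Dcn and Spp1 held under all 12 alternatives. B lineage markers, which matter for Ly6d, overlapped between the groups at 6.36 to 8.51 CPM in SKO and 5.55 to 10.1 CPM in DKO, with Igll1 at 0 reads. Plasmacytoid dendritic cell markers, which also matter for Ly6d, overlapped in their sum (122 to 148 and 120.1 to 137 CPM), but most of it was the broadly expressed Bst2 (114 ± 14.4 and 106 ± 7.54 CPM). Siglech, more specific to these cells, stood at 0.882 ± 0.185 CPM in SKO libraries and 1.68 ± 0.304 CPM in DKO libraries without overlap. It was called higher with an edgeR adjusted p of 0.0435, and this call ended with DESeq2, limma-voom or no filter and without any 1 library other than DKO replicate 2 (adjusted p up to 0.127). Cox6a2, also known from these cells, had 2 reads in SKO and 46 in DKO and was not tested. The part of these cells in the level of Ly6d was not tested. Endothelial (274 to 307 and 273 to 292 CPM), neutrophil (1.58 to 3.12 and 1.27 to 5.50 CPM), mesothelial (5.18 to 9.65 and 4.67 to 7.27 CPM) and pancreatic acinar markers (28.8 to 40.1 and 18.2 to 29.8 CPM) overlapped too. The acinar sum was nearly all Cela1 (34.3 ± 5.65 and 25.1 ± 6.11 CPM), and Cpa1, Cpb1, Ctrb1 and Pnlip had no reads in any library.

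**Figure D4:**
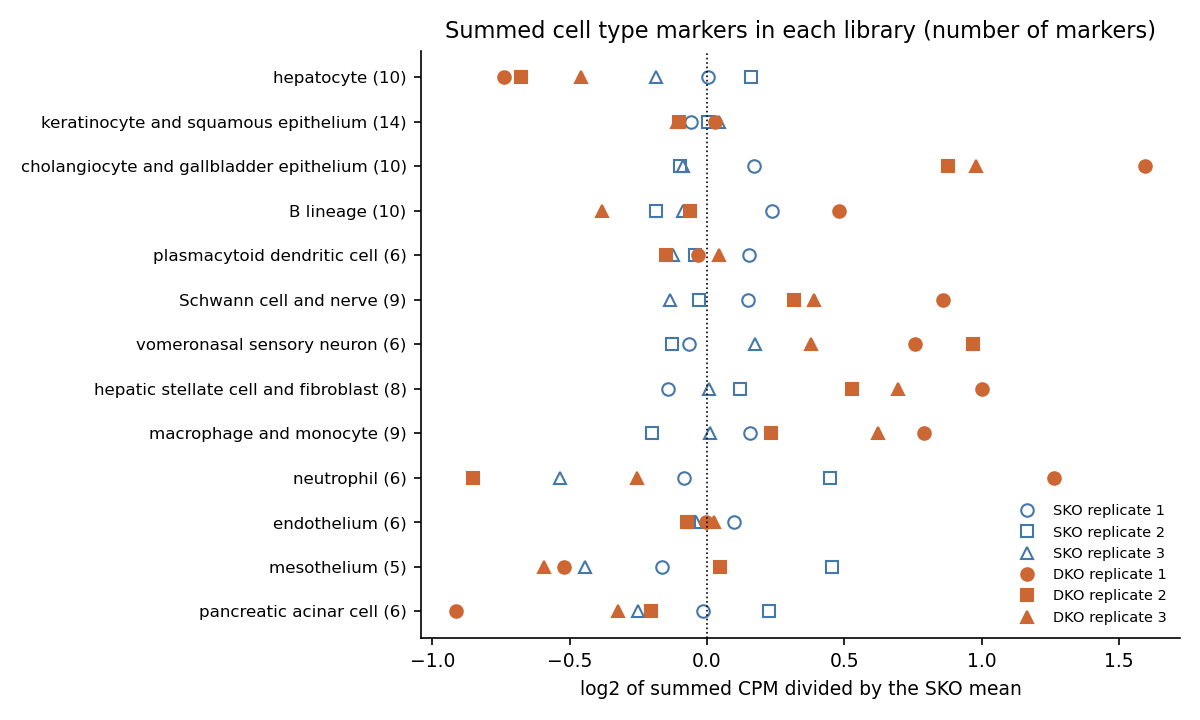
Summed CPM of each cell type's markers in every library, as log2 of its ratio to the SKO mean, with the number of markers in parentheses. Open markers are SKO and filled markers DKO libraries. Cholangiocyte, stellate and macrophage sums lie to the right of SKO in all DKO libraries, squamous sums lie within the SKO range or near it, and hepatocyte sums lie to the left.

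For each of the 5 genes the other genes with the most similar pattern were found by the root mean square difference of log2(CPM + 0.5) over the 6 libraries, each gene centred on its own mean, among 13981 genes. The closest to Ly6d were the bile acid and steroid sulfotransferase genes Sult2a2 (0.354) and Sult2a1 (0.389), and Gpnmb (0.693). Sult2a1 and Sult2a2 are closely related copies, so their reads may be split or left uncounted, which was not measured. Sprr1a was closest to Gpnmb (0.34), a glycoprotein of lipid-laden macrophages, Mmp12 (0.395), the macrophage metalloelastase, and Shc2 (0.414). Gldn had Shc2 (0.24), Mmp12 (0.314) and the carbonyl reductase gene Cbr3 (0.37) as its closest genes. Vmn2r3 was matched most closely by Insyn1 (0.15), the stress-induced Nupr1 (0.184) and the transporter gene Abcc12 (0.271). The tightest match of all was that of Arhgef2 with Emp1 (0.074), an epithelial membrane protein, followed by Phlda3 (0.109), a known p53 target, and Ccdc120 (0.129). Among the 5 genes, Vmn2r3 and Arhgef2 were the most alike (0.374) and Ly6d and Arhgef2 the least (1.324). These distances combine the genotype difference with the order of the DKO libraries. For genes near zero they also depend on the 0.5 CPM added, which compresses the difference of Vmn2r3 from 0 reads, and no other constant was tried.

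How often genes rose from near zero can be counted. The files hold 54232 genes, and 27528 of these had no reads in any library. Of all 54232, 19 (0.0350%) stood at or under 0.2 CPM in every SKO library and at or over 0.5 CPM in every DKO library. Gldn and Vmn2r3 were among them, and Ly6d, Sprr1a and Arhgef2 were not. Sprr1a missed the limit through SKO replicate 3 at 0.394 CPM, and Ly6d through all 3 SKO libraries. The 10 with the highest DKO means were, in order, Sult2a1 (26.1 ± 20.2 CPM), Sult2a2 (23.3 ± 16.2), the cystine transporter gene Slc7a11 (5.13 ± 5.14), Gldn, the PDZ adaptor gene Gipc2 (4.39 ± 3.10), Vmn2r3, Insyn1 (2.68 ± 1.08), Sult2a5 (2.67 ± 1.72), Scube1 (1.59 ± 1.46) and Bmp8b (1.56 ± 1.09). The reverse pattern, 0.5 CPM or more in every SKO library and 0.2 or less in every DKO library, was met by 4 genes (0.00738%), among them Gm19572 and Gm12718.

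**Figure D5:**
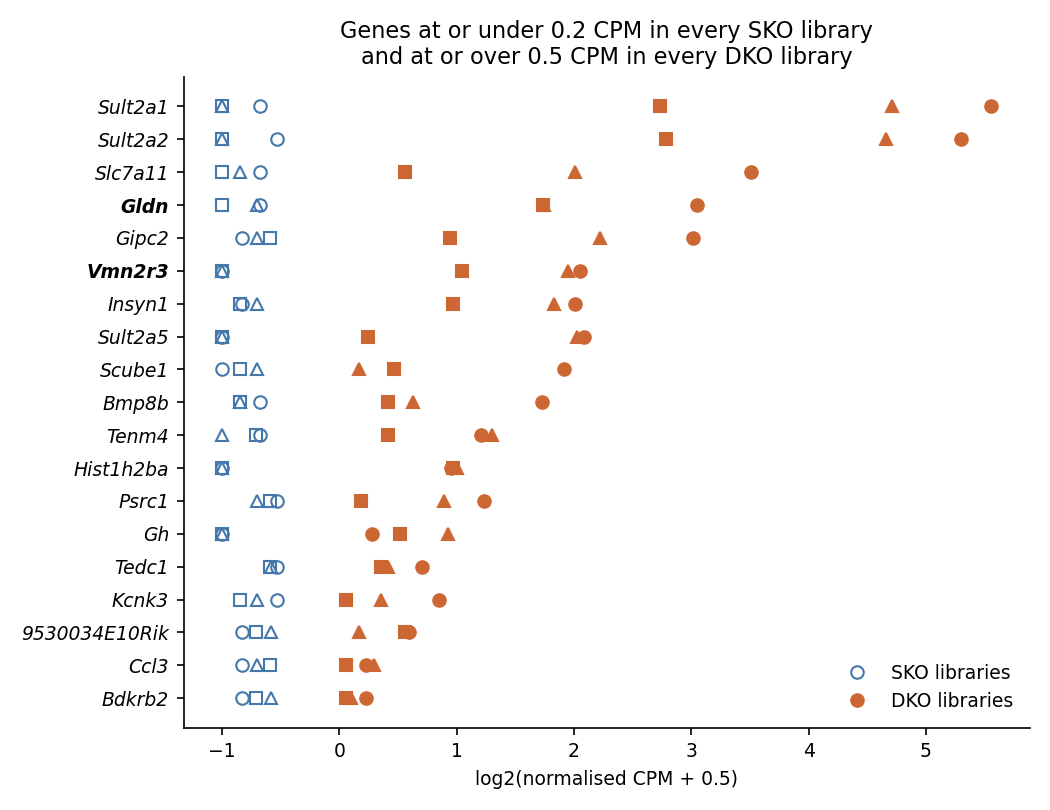
The 19 genes at or under 0.2 CPM in every SKO library and at or over 0.5 CPM in every DKO library, ordered by DKO mean, as log2(normalised CPM + 0.5). Open markers are SKO and filled markers DKO libraries (circle, square and triangle for replicates 1, 2 and 3), and Gldn and Vmn2r3 are in bold. Both lie among the 6 highest, and the DKO libraries of Vmn2r3 are closer together than those of Sult2a1 and Slc7a11.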

How the data were processed

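Each library had its own file of raw read counts per Ensembl gene, as deposited by the authors. Tools listed in the submitters' processing notes were STAR, cutadapt 1.13, DESeq2 and HTSeq 0.6.1p1, on the build mm10. Their settings, the use of strand and the annotation release were not stated there. Symbols, positions and exon lengths came from GENCODE M21, in which 54165 of 54232 identifiers matched. Libraries were grouped by the labelled genotype, and replicate numbers follow accession order and pair nothing. Counts were filtered with filterByExpr and tested for DKO against SKO on all 6 libraries by the robust quasi-likelihood method of edgeR 4.0.16 under R 4.3.3, using TMM factors. The Benjamini-Hochberg adjustment ran over 13986 genes, with calls made under 0.05. The fit was tested on simulated data. DESeq2 1.42.0, limma-voom (limma 3.58.1), other scalings, no filter and leaving out each library were alternatives. Fold intervals are exact counting intervals and, like the limits for a count of 0, cover counting error only.

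The 5 genes, the 7 gene lists and the 13 marker lists were chosen with earlier results of these data known. Named beside the 5 genes and the targeted genes were the neighbours, the 3 called list genes with the smallest p (with none called or tested, the 2 with the highest level), the 3 closest genes by pattern and the 10 highest genes rising from near zero. Olfml2a, Olfml2b, Rock1, Ankrd1, Csrp3, Spp1, Bst2, Siglech, Cox6a2, Vmn2r100, Hist1h2ba and Gh were named after their values were seen. The same holds for Krt10, Adgre1, Ccr2, Cd68, Trem2, Col1a1, Des, Pdgfrb, Dcn, Epcam and Krt19. 1 gene of the reverse near-zero pattern is not reported here.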

Additional observations from a re-analysis of the deposited data

How the results depend on the processing

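Directions of the 5 genes held under all 12 alternatives. On leaving out each library, log2 fold changes ranged from 4.61 to 5.97 for Ly6d, 4.89 to 6.62 for Sprr1a, 5.08 to 6.19 for Gldn and 1.81 to 2.49 for Arhgef2, and the log2 lower bound of Vmn2r3, 5.64 with all libraries, from 5.01 to 5.92. The bound falls without an SKO library because 3 counts are then spread over fewer reads. Genes called higher numbered 1446 and ranged from 674 to 1569 without 1 library, and genes called lower 1357, from 745 to 1200. With total counts alone they were 3848 and 539, and the median gene moved to a log2 fold change of 0.23, so changes are relative to the median gene. Upper-quartile factors moved it to 0.07. Of all calls, 51.6% were higher with TMM factors, 65.3% with upper-quartile factors and 87.7% with total counts. Among neighbours, 0 were called higher, with 0 to 1 without 1 library, 2 with no filter (Lynx1 and Ly6k), 2 with total counts (Lynx1 and Dmxl2) and 1 with upper-quartile factors (Lynx1). Over all gene lists 34 genes were called higher and 9 lower, 19 to 40 and 4 to 10 without 1 library, and 67 and 4 with total counts. Depth limits Sprr1a, Gldn and Vmn2r3 most, with 10, 4 and 0 SKO reads. No paired analysis was possible because the labels tie no SKO library to a DKO library.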

Other observations

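Among the genes that rise from near zero, Hist1h2ba was more even across the DKO libraries than the 5 genes and Gh had another order of libraries, and both were picked after their values were seen. Hist1h2ba, a histone gene known from testis, had 0 reads in SKO and was at 1.43, 1.46 and 1.50 CPM in DKO replicates 1 to 3. Gh, which encodes pituitary growth hormone, had 0 reads in SKO and was at 0.714, 0.928 and 1.40 CPM in DKO, lowest in DKO replicate 1, where the 5 genes were highest. Both are given as values of single loci with few reads, 93 and 63 over the DKO libraries.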
